A study of Mus musculus with 4 samples.

Results

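The Slug and Snail binding sites examined here are those around Sox4, Sox9 and Sox10, 3 Sox-family transcription factor genes with described mammary roles. A site was taken when its midpoint lay in one of these 3 genes or within 200 kb of either end, with gene positions from RefSeq on the mouse build mm10. This gave 54 of 41612 Slug peaks and 38 of 28375 Snail peaks, 92 of 69987 in all. The Slug list came from chromatin immunoprecipitation and sequencing (ChIP-seq) with a rabbit monoclonal Slug antibody (C19G7) in pBl.1G, described by the submitters as epithelial with high Slug. The Snail list came from pBl.3G, described as mesenchymal with high Snail and precipitated with an antibody whose label names SNAIL and SLUG together. Both are untreated breast cancer lines of the MMTV-PyMT model, in which a mammary tumour virus promoter drives polyoma middle T. Whether each line is 1 clone is not given in the sources used here. There was 1 library per factor and 1 input library per line. The inputs carried no peak list and were not used. The labelled cell states were not checked against markers, since the data used here hold peaks and no expression values.

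Sox proteins bind DNA through a high-mobility-group (HMG) box and bend it. Sox4 belongs to group C and promotes epithelial-mesenchymal transition (EMT) downstream of TGF-beta. Sox9 and Sox10 belong to group E: Sox9 marks luminal progenitors and acts with Slug to install the mammary stem cell state, and Sox10 is known from neural crest and from stem-like mammary cells. Slug (Snai2) and Snail (Snai1) are zinc finger repressors that recognise the E-box CAGGTG. Sox9 is known to lie beside a large stretch with few genes that holds distant enhancers.

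The promoter sequences below are a selection from the 18 around the 3 genes that a Snail peak touched. RefSeq promoter windows (GRCm38.p6, the assembly of mm10) run from 250 bases before to 50 bases after a start site. Sox4 had one, at chr13:28953650-28953949 on the minus strand. Sox9 and Sox10 were not among the sequences used. The others are promoters in the Sox10 window, at chr15:79229132-79229431 (Pick1, plus strand), chr15:79030624-79030923 (Gcat, plus strand) and chr15:79141075-79141374 (Polr2f, plus strand). Pick1 encodes a PDZ-domain scaffold and carried the highest-scoring Slug peak of that window. Gcat encodes a mitochondrial enzyme of threonine breakdown. Polr2f encodes an RNA polymerase subunit and carried the highest Snail score of the 3 windows. Capitals mark every E-box core CANNTG.
Sox4: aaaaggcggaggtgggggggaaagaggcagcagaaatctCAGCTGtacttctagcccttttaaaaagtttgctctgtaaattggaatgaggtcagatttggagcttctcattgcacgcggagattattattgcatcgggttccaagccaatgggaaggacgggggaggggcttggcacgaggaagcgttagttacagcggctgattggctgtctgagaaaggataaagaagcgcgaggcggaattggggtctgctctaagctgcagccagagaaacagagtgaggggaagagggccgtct
Pick1: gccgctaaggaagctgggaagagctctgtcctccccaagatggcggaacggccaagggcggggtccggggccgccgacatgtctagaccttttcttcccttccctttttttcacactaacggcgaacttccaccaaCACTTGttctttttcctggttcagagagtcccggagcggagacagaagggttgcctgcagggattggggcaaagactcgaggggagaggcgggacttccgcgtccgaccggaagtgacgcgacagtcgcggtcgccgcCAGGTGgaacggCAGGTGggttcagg
Gcat: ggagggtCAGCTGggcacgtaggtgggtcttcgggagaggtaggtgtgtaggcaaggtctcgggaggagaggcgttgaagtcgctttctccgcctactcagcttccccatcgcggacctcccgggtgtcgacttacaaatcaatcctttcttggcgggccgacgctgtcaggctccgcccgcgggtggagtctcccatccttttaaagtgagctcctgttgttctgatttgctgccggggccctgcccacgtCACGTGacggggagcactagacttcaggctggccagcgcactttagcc
Polr2f: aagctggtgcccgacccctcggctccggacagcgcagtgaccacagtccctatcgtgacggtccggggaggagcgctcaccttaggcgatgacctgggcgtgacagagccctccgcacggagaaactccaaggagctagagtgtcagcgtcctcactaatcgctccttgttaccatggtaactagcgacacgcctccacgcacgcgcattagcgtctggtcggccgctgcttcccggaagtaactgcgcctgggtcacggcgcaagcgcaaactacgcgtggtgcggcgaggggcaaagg

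The Sox4 promoter held 1 E-box core, CAGCTG, at base 40 counted from its 5′ end, and no CAGGTG. That core lay in the Slug peak, which covered bases 1 to 97, and in the Snail peak, which covered all 300 bases. The Pick1 promoter window shown lay wholly inside both peaks and held CAGGTG at bases 275 and 287. A second Pick1 window, at chr15:79228923-79229222, was touched by the same peaks and held no E-box core. Of the E-box cores of the Gcat promoter, CACGTG at base 253 lay in both peaks and CAGCTG at base 8 in the Snail peak alone. The 300-base Polr2f window held no E-box core, while the overlapping promoter window of 1700088E04Rik, under the same Snail peak, held CACTTG at its base 65. Counted on both strands, CAGGTG occurred in 20.2% of all 32851 promoter windows of this length, CAGCTG in 16.3% and any CANNTG, which includes both, in 72.3%. Among the 34 promoter windows around the 3 genes, CAGGTG occurred in 1 of the 4 touched by a Slug peak, in 4 of the 18 touched by a Snail peak and in 3 of the 16 touched by neither. The 4 are among the 18. A match could lie outside the peak, as for CACCTG at base 290 of a Maff window. The 34 windows come from fewer genes, since several have more than 1 start.

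Sox9 had the most Slug peaks and Sox10 the most Snail peaks. Slug peaks numbered 27 around Sox9, 14 around Sox10 and 13 around Sox4. Snail peaks numbered 5 around Sox9, 24 around Sox10 and 9 around Sox4. Slug peaks outnumbered Snail peaks around Sox9 and Sox4 and were fewer around Sox10. For Sox4 this order turned to 5 Slug against 6 Snail peaks when only scores of at least 100 were kept, and to 7 against 9 when the Slug list was limited to the length of the Snail list. With 1 library per factor no difference between the lists can be tested, and factor, antibody and line cannot be told apart. Scores are the authors' peak-caller values and were read within one list only. The median score was 81.1 in the whole Slug list and 151 in the whole Snail list.

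**Figure D1:**
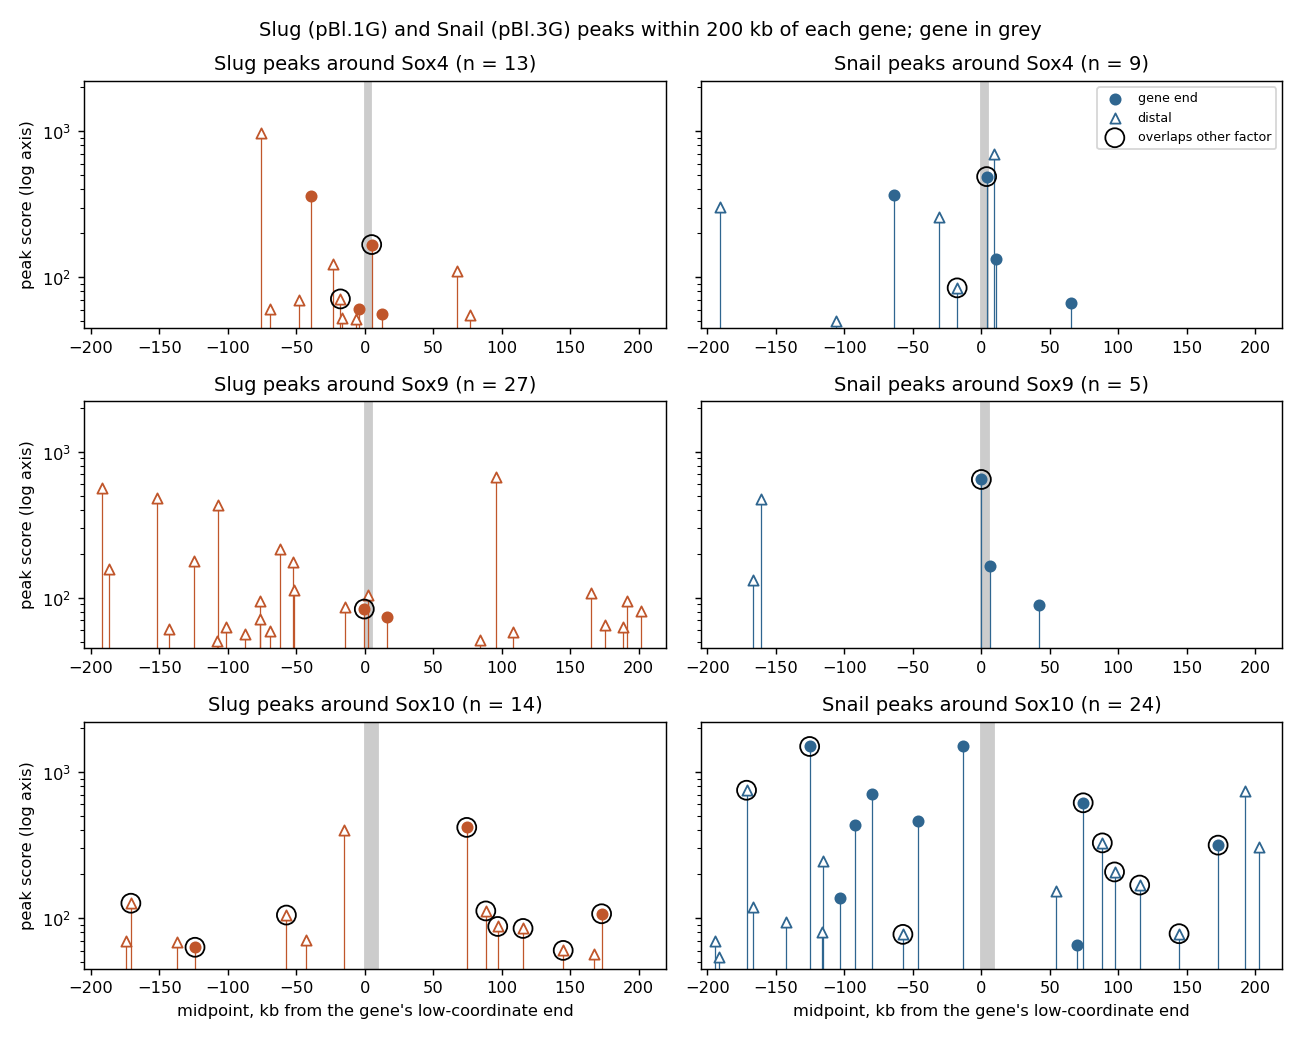
Each panel plots the peaks of one factor around one gene, with the midpoint's distance in kb from the gene's low-coordinate end on the x axis and the peak score on a logarithmic y axis. Filled circles are sites within 1 kb of a gene end, open triangles are distal sites, black rings mark overlap with the other factor, and the grey band is the gene. Slug peaks flank Sox9 on both sides, 27 in all, while no peak of either factor lies at Sox10 itself.

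Each list had a peak at the start of Sox4. The lists come from different lines, and the label of the Snail antibody also names SLUG, so joint binding was not tested. Sox4 spans chromosome 13, 28948919 to 28953699, and its start is the high-coordinate end. The Slug peak there ran from 28953853 to 28954110 with a score of 167, and 21.5% of Slug peaks scored at least as high. The Snail peak ran from 28951561 to 28954152, scored 488 and contained the whole Slug peak. It was 2592 bp wide, a width reached by 2.21% of Snail peaks. Of all protein-coding genes, 12.1% had Slug within 1 kb of either end, 48.7% had Snail and 8.88% had both.

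The highest-scoring peak of each factor around Sox4 lay outside the gene. The top Slug peak, at 28872711 to 28873152, scored 963, a level reached by 0.625% of the Slug list. It lay 76.0 kb beyond the low-coordinate end, downstream of Sox4 and inside the long noncoding RNA gene 2610307P16Rik. The next, at 28909501 to 28909760, scored 358 and sat 30 bp from the end of the noncoding gene Gm34697. The top Snail peak, at 28957701 to 28959323, scored 701 and lay 4.81 kb upstream of the start, within the span of Gm46405, a noncoding gene that also contains Sox4. The next Snail score, 488, was that of the peak at the Sox4 start described above. A Snail site scoring 364 sat 5 bp from the end of 2610307P16Rik. None of the 4 peaks away from the start overlapped the other factor.

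The other sites around Sox4 scored lower. A Slug peak 23.4 kb downstream scored 122, and Snail peaks 31.0 and 190.7 kb downstream scored 259 and 303. Slug peaks of 60.4 and 56.2 lay within 1 kb of the low and high ends of Gm46405, the first also near Gm46406. Snail peaks of 132 and 66.2 lay within 1 kb of an end, the first of Gm46405 and Gm52067 and the second of A330102I10Rik. Of the 13 Slug peaks, 9 lay on the low-coordinate side and 4 on the other, and all were within 76.0 kb of the gene. Only 5 of the 13 scored above the median of the Slug list. A further shared site, 17.8 kb downstream, had a Slug score of 71.1 and a Snail score of 84.6.

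Around Sox9, Slug sites were many and scattered, and their distal share was near that of the whole Slug list. Sox9 spans chromosome 11, 112782210 to 112787757, and its window held 5 other RefSeq genes, all noncoding. Of 27 Slug peaks, 25 were distal and 2 (7.41%) lay within 1 kb of a gene end, against 9.96% in the whole Slug list. On the low-coordinate side lay 17, on the high-coordinate side 9 and inside the gene 1. The highest-scoring was at 112878251 to 112878511, 90.6 kb beyond the high-coordinate end inside Gm46301, with a score of 670. On the low-coordinate side, peaks 192, 152 and 107 kb from the gene scored 565, 484 and 432, the last inside BC006965. No more than 3.67% of the Slug list reached any of these 4 scores. None of them overlapped a Snail peak.

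At Sox9 itself each list had a peak at the low-coordinate end. The Slug peak at the low-coordinate end, 112781704 to 112782044, scored 83.6, a value that 48.3% of the Slug list reached. A second, at 112784066 to 112784427 inside the gene and 2.04 kb from that end, scored 104, and another, near an end of the noncoding gene Gm11681, scored 73.3. The Snail peak across the same end ran from 112780952 to 112783666 with a score of 644, reached by 21.9% of the Snail list, and contained the Slug peak at that end. A further Snail site (166) crossed the high-coordinate end without a Slug partner. The other 3 Snail peaks scored 470 and 131 at about 161 and 166 kb on the low-coordinate side, and 88.6 near an end of 1700012H19Rik. Between the Snail midpoints at 112621589 and 112782309, a stretch of 161 kb without another Snail peak, there were 15 Slug midpoints, of which 1 belongs to the shared site at the end of Sox9.

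Sox10 had no site of its own. It spans chromosome 15, 79154913 to 79164490, and neither factor had a peak inside it or within 10 kb of either end. Of all protein-coding genes, 36.8% had both factors within 10 kb, 25.1% lacked both there and 48.0% lacked both within 1 kb. The nearest Slug midpoint was 15.0 kb and the nearest Snail midpoint 13.6 kb from the low-coordinate end. The Slug peak, at 79139823 to 79140090, scored 401 and lay inside 1700088E04Rik. The Snail peak, at 79140952 to 79141691, scored 1509.5 and covered the facing ends of 1700088E04Rik and Polr2f. Slug midpoints left a gap of 89.4 kb across Sox10 and Snail midpoints one of 68.0 kb.

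All gene-end sites around Sox10 lay at neighbouring genes, of which 15 in the window are protein-coding. Besides Polr2f, the linker histone gene H1f0 had a Snail peak 3815 bp wide that scored 1493 and reached into Gcat, where a Slug peak scored 63.2. At Eif3l, a translation initiation factor subunit gene, the end site was Snail alone (709). Pick1 had the highest Slug score of the window, 417, inside a Snail peak of 615. Micall1, an endocytic recycling scaffold gene, and Ankrd54 carried Snail alone at an end, scoring 463 and 433. Pla2g6, a phospholipase gene, had both, with 107 for Slug and 316 for Snail. Snail peaks of 137 and 65.5 lay at ends of the noncoding genes Gm3924, and Gm52189 with Gm30527.

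Gene-end sites made up a minority of the Slug peaks around all 3 genes and a larger part of the Snail peaks. A gene-end site has its midpoint within 1 kb of an end of any RefSeq gene, and every other site is called distal, inner alternative starts included. Of the Slug peaks, 9 of 54 were gene-end sites (16.7%, Wilson 95% interval 9.02 to 28.7), against 9.96% in the whole Slug list. Of the Snail peaks, 16 of 38 were (42.1%, 27.9 to 57.8), against 43.4% in the whole Snail list, so the Snail share stands near its background. The intervals cover counting error only. By gene, the Slug shares were 4 of 13 at Sox4, 2 of 27 at Sox9 and 3 of 14 at Sox10, and the Snail shares were 4 of 9, 3 of 5 and 9 of 24. Stretches within 1 kb of a gene end took up 7.28% of the Sox4 window, 5.92% of the Sox9 window and 20.3% of the Sox10 window. The Slug share was thus 4.23 times the stretch share at Sox4, 1.25 times at Sox9 and 1.06 times at Sox10. For Snail the ratios were 6.11, 10.1 and 1.85. No such ratio was computed for the whole lists, so the ratios have no background here. The shares behind them have wide Wilson intervals. For Slug these were 12.7 to 57.6% at Sox4, 2.06 to 23.4% at Sox9 and 7.57 to 47.6% at Sox10. The 9.96% of the whole Slug list lies within those of Sox9 and Sox10 and below that of Sox4. For Snail they were 18.9 to 73.3% at Sox4, 23.1 to 88.2% at Sox9 and 21.2 to 57.3% at Sox10. Each Snail interval holds the 43.4% of the whole Snail list. Counting only ends of protein-coding genes left 26.3% of the Snail peaks at an end, a rule for which no whole-list share was computed. Windows of 100 kb with all gene ends gave a Snail share of 65.0%.

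**Figure D2:**
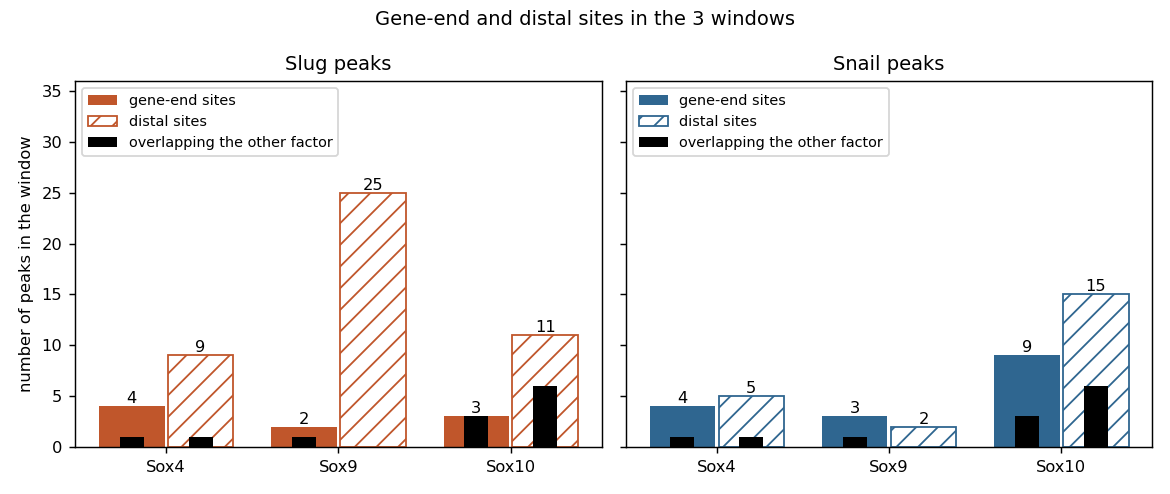
Bars give the number of peaks within 200 kb of each gene, filled for gene-end sites and hatched for distal sites, with Slug on the left and Snail on the right. The narrow black bars count the peaks that overlap the other factor. The 25 distal Slug sites of Sox9 are the tallest bar and hold no overlap.

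The windows differ in the genes they hold, and the ends met are to be read beside that. The Sox4 window held 8 lncRNA genes and no other protein-coding gene, and 3 of its 4 Slug and 3 of its 4 Snail gene-end sites lay at ends of noncoding genes only. Around Sox9, with 5 lncRNA genes and no other protein-coding gene, 1 of the 2 Slug and 1 of the 3 Snail gene-end sites did. Around Sox10, with 16 protein-coding genes in the window, all 3 Slug and 7 of the 9 Snail gene-end sites lay at a protein-coding end. Some sites lay close to the 1 kb limit. The Snail midpoint at H1f0 was 0.910 kb from the end and counted, while a Slug midpoint at Slc16a8, a monocarboxylate transporter gene, was 1.02 kb and a Snail midpoint at Maff, a small Maf factor gene, 1.04 kb away and did not. At the 200 kb limit, the outermost Slug peak of Sox9 lay at 196 kb with a score of 80.4 and the next beyond it at 229 kb with a score of 332.

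For neither factor did gene-end and distal sites differ in the same direction in all 3 windows by their median scores. The median Slug score was 83.6 at the 9 gene-end sites and 85.0 at the 45 distal sites, against 81.8 and 81.1 in the whole list. The median Snail score was 398 at the 16 gene-end sites and 160.3 at the 22 distal sites, against 545 and 93.5 in the whole list. By window, the Slug medians at gene-end and distal sites were 114 and 70.0 around Sox4, 78.4 and 94.2 around Sox9, and 107 and 85.0 around Sox10. The Snail medians at gene-end and distal sites were 463 and 152 around Sox10, 248 and 259 around Sox4, and 166 and 300.5 around Sox9. The ranges overlapped in each window and for each factor.

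**Figure D3:**
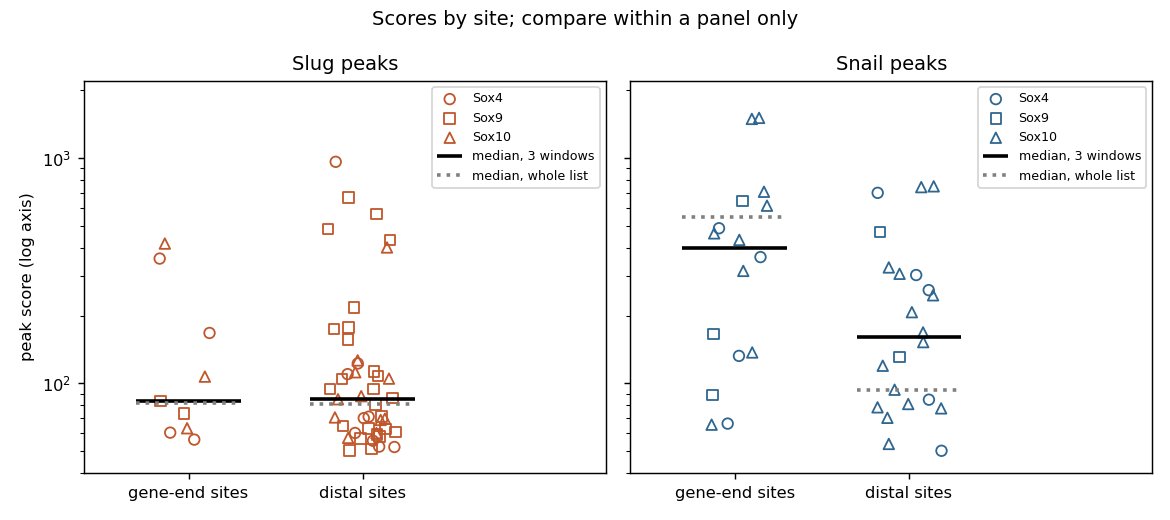
Points are single peaks, with the score on a logarithmic y axis, gene-end sites left of distal sites, and one marker shape per gene. Black lines are medians over the 3 windows and dotted lines are medians over the whole list. The Slug lines lie close together at 83.6 and 85.0, and the Snail lines lie apart at 398 and 160.3.

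Among Slug peaks, overlap with a Snail peak was frequent around Sox10 and lowest around Sox9, whose window held only 5 Snail peaks. Around Sox10, 9 of 14 Slug peaks overlapped a Snail peak by at least 1 bp (64.3%, 38.8 to 83.7). Around Sox4, 2 of 13 did (15.4%, 4.33 to 42.2), and around Sox9, 1 of 27 (3.70%, 0.657 to 18.3). In the whole Slug list the share was 12.1%, which lies within the intervals of Sox4 and Sox9. Seen from Snail, 9 of 24 peaks around Sox10, 2 of 9 around Sox4 and 1 of 5 around Sox9 overlapped a Slug peak, against 16.6% in the whole Snail list. Over the 3 windows 22.2% of Slug peaks were shared. Without the Sox9 window the share was 40.7%, and without the Sox10 window it was 7.50%.

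Gene-end Slug sites were shared more often than distal ones in these windows, as in the whole list. Of the 9 gene-end Slug sites 5 were shared (55.6%, 26.7 to 81.1), and of the 45 distal ones 7 (15.6%, 7.75 to 28.8). In the whole Slug list the shares were 40.7% and 8.94%. For Snail, 5 of 16 gene-end sites (31.3%, 14.2 to 55.6) and 7 of 22 distal sites (31.8%, 16.4 to 52.7) were shared, against 13.0% and 19.3% in the whole Snail list. Around Sox10, all 3 gene-end Slug sites and 6 of the 11 distal ones were shared. Around Sox9, 1 of the 2 gene-end sites and none of the 25 distal ones were.

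In 11 of the 12 overlapping pairs the Slug peak lay entirely inside the Snail peak. The exception, inside Pla2g6, shared 17 bp at scores of 60.1 for Slug and 78.2 for Snail. The midpoints were a median of 215 bp apart, from 20 bp at a site 3.28 kb beyond Eif3l to 1337 bp at Gcat. At Sox4 they were 1125 bp and at Sox9 435 bp apart. Distal pairs of the Sox10 window lay inside Triobp, an actin-binding protein gene, with 126 for Slug and 749 for Snail, and inside Pick1, with 112 and 327. Others lay inside Slc16a8, with 87.7 and 207, and Baiap2l2, with 85.0 and 168. The pair beyond Eif3l scored 105 and 77.4. Asking for a reciprocal overlap of 50% left 2 of the 12 pairs, 3.70% of the Slug peaks. For a contained Slug peak this rule depends only on the widths of the peaks. Median widths were 206 bp in the whole Slug list and 722 bp in the whole Snail list.

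**Figure D4:**
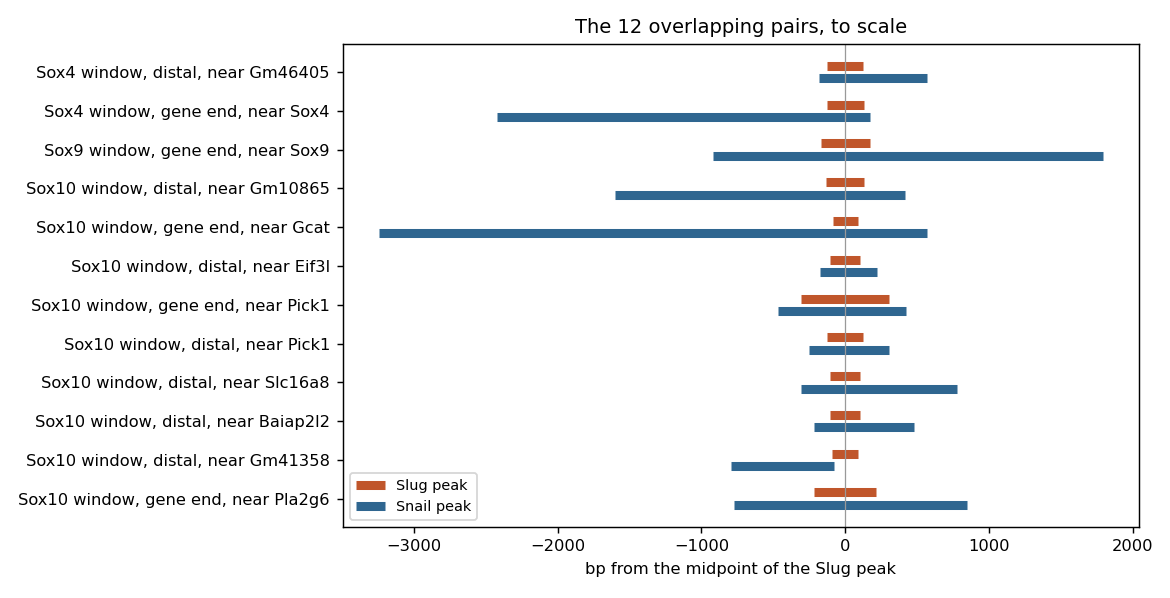
Each row is one overlapping pair, with the Slug peak above the Snail peak and the x axis giving the distance in bp from the Slug midpoint. Slug peaks are the narrower bars, and all but the pair near Gm41358 are contained in the Snail bar.

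Set against all 21887 protein-coding genes, the number of Slug peaks was high for Sox9 and moderate for Sox4 and Sox10. At least 27 Slug peaks within 200 kb were found for 0.516% of the genes, at least 14 for 19.6% and at least 13 for 24.6%. Any Slug peak at all in the window was found for 96.4% of genes and any Snail peak for 88.9%, as for each of the 3 Sox genes. The median gene had 9 Slug peaks, with quartiles of 5 and 12. For Snail, the 24 peaks of Sox10 were reached by 7.08% of the genes, the 9 of Sox4 by 49.6% and the 5 of Sox9 by 70.1%, and the median gene had 8. Windows of neighbouring genes overlap, so these shares describe the lists and are not tests. Snail counts followed the number of gene ends in a window (Spearman's rho 0.49 across genes) more than Slug counts did (0.15), over genes that share peaks and libraries. The Sox9 window held 12 gene ends, the Sox4 window 17 and the Sox10 window 50, against a median of 29. Genes whose windows held within 2 as many ends as Sox9 had a median of 7 Slug peaks (quartiles 4 and 10) and 3 Snail peaks. Those with about as many as Sox10 had medians of 9 Slug and 15 Snail peaks, and those with about as many as Sox4 had 8 and 5.

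**Figure D5:**
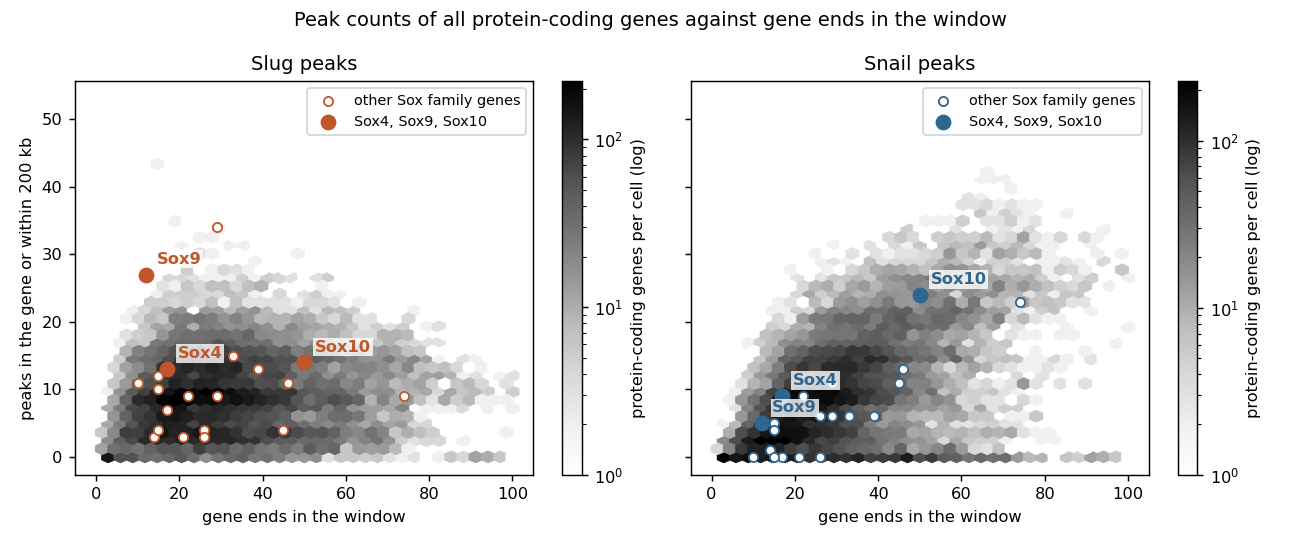
Grey cells count protein-coding genes by the gene ends in their 200 kb window (x axis) and the peaks there (y axis), with Slug on the left and Snail on the right, and 138 genes with more than 100 ends lie beyond the axis. Coloured points are Sox genes. Sox9 stands at 12 ends and 27 Slug peaks, where genes with a like number of ends have a median of 7 and reach 43, while Sox10 sits at 50 ends and 24 Snail peaks within the grey cloud.

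In the rest of the Sox family, sites at the gene's own ends were found at some genes only. Of the other 17 family members, 4 had Slug at an end (Sox8, Sox12, Sox13 and Sox21) and 6 had Snail (Sox2, Sox6, Sox7, Sox12, Sox13 and Sox21), beside the 12.1% and 48.7% of all genes given above. Sox12, in group C with Sox4, had a Slug peak of 167 shared with Snail peaks of 122 and 138. Sox11, the third of group C, had no peak of either factor at its ends. Sox8, in group E with Sox9 and Sox10, had a Slug peak of 93.1 and no Snail peak at an end. Within 200 kb, 11 of the other 17 family genes had more Slug than Snail peaks, and 13 of the 20 with Sox4, Sox9 and Sox10 included. Among all protein-coding genes 47.3% did. That background was not matched for gene ends in the window. By the summed difference of log2(1 + peaks) over 4 counts in 2 libraries, the closest to Sox4 were Sox13 (0.49) and Sox21 (0.71). The closest to Sox9 were Sox21 (1.61) and Sox2 (2.11), and to Sox10 Sox15 (0.64) and Sox30 (1.64). Only Sox5, a gene that is itself far longer than Sox9, had more Slug peaks than Sox9 in the family, 34.

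Among 20 other regulators and markers of the mammary lineages, most had more Slug than Snail peaks in the window. Of the 20, 1 had Slug at an end and 8 had Snail, while within 10 kb 15 had Slug and 13 had Snail. Of all protein-coding genes, 12.1% had Slug and 48.7% had Snail within 1 kb of an end. Within 10 kb the shares were 47.6% and 64.1%. In the 200 kb windows 18 of the 20 had more Slug than Snail peaks, against the 47.3% of all genes. That background was not matched for gene ends in the window, which Snail counts followed more than Slug counts did. Whether the difference goes beyond gene ends was not tested. The medians were 13 Slug and 6 Snail peaks.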

How the data were processed

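Each ChIP library has its own peak list, made by the authors. Per the submitters' processing notes, the tools were Bowtie and MACS 1.4.2 on build mm10. Bowtie's version, caller settings and the control: not given in the sources used here. Column 5 of the deposited lists is the authors' peak score, at least 50 throughout, on a scale the files do not state. Depth is unknown. Formaldehyde crosslinking and sonication came first, per the labels' protocols.

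Positions were made 1-based. RefSeq GRCm38.p6 supplied 49943 genes on the main chromosomes, 21887 of them protein-coding. The counting used Python (3.11.15), pandas (2.3.3), numpy (2.4.6) and, for Wilson intervals, scipy (1.17.1). Figures were drawn in matplotlib (3.10.9). Counting was tested on simulated peaks. No test between conditions was possible. The text names the 3 genes, every gene with a peak within 1 kb of an end in their windows, the 3 highest-scoring peaks per window and factor, every overlapping pair, the other Sox genes of groups C and E, and the 2 family genes with the most similar counts. Sox5 and sites outside this rule were named after their values were seen, and mammary regulators enter by counts only. The members and lists were chosen with earlier results of these data known. The alternatives changed the score limit, window, gene-end rule and overlap rule.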

Additional observations from a re-analysis of the deposited data

How the results depend on the processing

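Of 56 recomputed values 35 stayed within the Wilson interval of the reported share or, for counts, changed by at most 1.5-fold. Requiring a score of at least 100 left 5 Slug peaks around Sox4, 11 around Sox9 and 6 around Sox10, and 18.5% of Snail peaks shared. Windows of 100 kb held 13 Slug and 3 Snail peaks around Sox9, 6 and 10 around Sox10, and raised the Snail gene-end share to 65.0%. Windows of 500 kb held 21 Slug peaks around Sox4, 65 Slug and 22 Snail peaks around Sox9, and 35 Slug and 61 Snail peaks around Sox10. With equal numbers of Slug and Snail peaks Sox4 kept 7 Slug peaks. Slug peaks outnumbered Snail peaks around Sox9 and were fewer around Sox10 under each of these settings, while the order at Sox4 turned under the score limit and under equal numbers. A score limit, shorter list or other window changes the peak counts by construction. The cause of the changes in shares was not tested. Gene ends reached to 2 kb took the Snail share to 57.9%, and protein-coding ends alone to 26.3%. No whole-list share was computed under either rule. The Slug gene-end share stayed between 9.26% and 25.9% in all its alternatives. Without the Sox9 window 40.7% of Slug peaks were shared, and without the Sox10 window 7.50%. At a reciprocal 50%, the shares were 3.70% for Slug and 5.26% for Snail. For contained peaks that rule depends on peak width, and no whole-list share was computed under it. No paired analysis was possible because each factor has 1 library. Depth is unknown, so a gene without a listed peak cannot be called unbound.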

Other observations

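Some sites called distal lie at alternative starts inside genes. In the 3 windows, 2 of the 22 distal Snail peaks touched a RefSeq promoter window, at an inner start of Triobp (peak score 749) and at inner starts of Maff (743), and none of the 45 distal Slug peaks did. In the whole lists 7.02% of distal Snail and 0.288% of distal Slug peaks touched one.

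Near Sox9 a pair of Slug peaks lay 2 bases apart, at 112729344 to 112729925 with a score of 175 and at 112729928 to 112730425 with a score of 113. They were counted as separate peaks here, as deposited. A Sox-type motif, ACAAAG or ACAATG on either strand, was found in 11 of the 34 promoter windows around the 3 genes, against 28.6% of all promoter windows. It was present in 1 of the 4 touched by a Slug peak and in 3 of the 18 touched by a Snail peak. Those 18 include the 4. Of the 16 touched by neither, 8 held it, and the Sox4 promoter held none.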
